A study of Mus musculus with 5 samples.

Results

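The genes described here are targets of the tumour suppressor protein p53 together with the Gadd45 family of stress genes, compared between wild-type and Mkl2-/- mouse embryonic stem cells. The set was chosen by gene symbol, with earlier results of these data known. It names 10 genes, Mdm2, Plk2, Ei24, Cdkn1a, Ccng1, Bbc3, Bax, Gadd45a, Gadd45b and Gadd45g. A gene was taken where an array feature carried its symbol and no other. This found 8 of the 10, each with 1 feature, among 19938 genes tested in all. The feature of Cdkn1a carries a second gene symbol, and Bax matched no feature by symbol, so neither was analysed here. Mkl2, now called Mrtfb, encodes a myocardin-related transcription factor that works with serum response factor. There were 2 wild-type cultures and 3 Mkl2-/- cultures of undifferentiated C57BL/6 cells, each hybridised as total RNA to 1 Affymetrix whole-transcript array. All cultures grew on gelatin and feeder fibroblasts in serum with leukaemia inhibitory factor, and feeders were removed by attachment before RNA was taken. The sources used here do not say how the Mkl2-/- cells were made or whether a genotype stands for 1 or several cell lines, and the p-values therefore measure the spread between cultures. Values are log2 expression, and each difference is the Mkl2-/- mean less the wild-type mean, so that a positive value is a higher level in Mkl2-/-.

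The p53 protein is a transcription factor that is held at a low level in unstressed cells and accumulates after DNA damage and other stress. It switches on genes that stop the cell cycle, repair DNA or start cell death, and it also switches on Mdm2, whose product marks p53 for destruction in a feedback loop. The Gadd45 genes encode small proteins induced by stress and growth arrest. Only some of this family is under direct p53 control, and Gadd45b and Gadd45g also respond to cytokines and growth factors. Embryonic stem cells are known to hold much p53 while dividing rapidly.

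The signal of Mkl2 itself was lower in the Mkl2-/- cultures but not absent. Mkl2 read 9.80 and 9.75 on the wild-type arrays and 9.32, 9.32 and 9.09 on the Mkl2-/- arrays, a difference of -0.53 ± 0.09 (SE, limma adjusted p = 0.048, and 0.038 to 0.189 with single arrays left out). That value is of the brightest of 3 features for the gene, and the mean of the 3 differed by -0.78 (limma adjusted p = 0.015). The sources used here do not place these features inside or outside the altered part of the gene, so the remaining signal checks nothing. All 12 stem cell markers fixed for the check, among them Pou5f1 and Sox2, lay above the background level of 7.30 (the 95th percentile of 1027 olfactory receptor genes) on every array. Of the 12, however, 41.7% passed the limma test, against 9.27% of all genes: Fgf4 (0.67), Dppa5a (0.49) and Utf1 (0.39) were higher in Mkl2-/-, and the pluripotency factor genes Nanog (-1.14) and Klf4 (-0.69) lower. Of 23 fibroblast markers, 4 (Lum, Postn, Fap and Dpt) lay below that level on every array. The mean of the 23 was 8.09 and 8.08 on the wild-type arrays and 7.99, 7.94 and 7.99 on the Mkl2-/- arrays, so the groups did not overlap. Of the 23, Igfbp4, Mmp2 and Pdgfrb fell and Twist1 rose (17.4% called). The part of these marker differences in the results on p53 target and Gadd45 genes was not tested. A fit with the fibroblast mean as a covariate is given with the other alternatives. It cannot cleanly separate that mean from genotype, because the groups did not overlap in it. Fewer cells of a kind and less RNA per cell cannot be told apart in such bulk samples.

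Of the 8 measured genes 5 were higher in Mkl2-/- cells, 1 was lower and 2 did not pass the test. Mdm2, Plk2, Ei24, Bbc3 and Gadd45g rose by 1.22-fold to 1.44-fold, and Gadd45b fell by 1.92-fold. A call is an adjusted p under 0.05 in the limma fit with Benjamini-Hochberg adjustment over all genes. By this rule 9.27% of all 19938 genes were called, 2.99% of them as higher and 6.28% as lower. These shares include genes below background. In a fit of the 13564 genes above it, 822 were called higher and 1537 lower, both larger shares. The median difference of the 8 genes was 0.29, against 0.02 over all genes tested. The set and the lists below were chosen with earlier results of these data known. Their shares and medians are descriptions and no independent test. The arrays of both groups did not overlap in 7 of the 8 genes, as in 33.6% of all genes. All 8 genes lay above the background level on every array. After a further quantile normalization the split of all calls moved from 596 higher and 1252 lower (32.3% higher) to 1254 higher and 1652 lower (43.2% higher), while the calls of the 8 genes stayed at 5 higher and 1 lower.

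**Figure D1:**
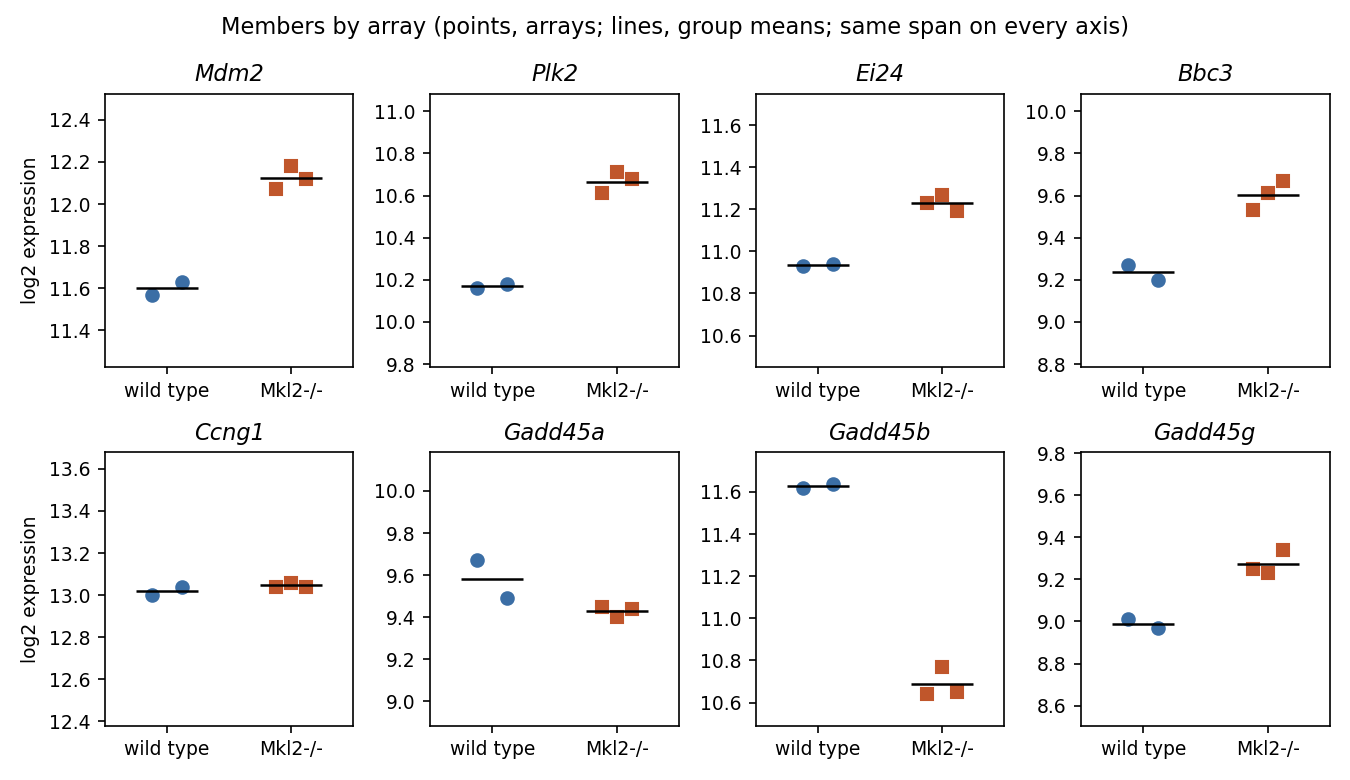
Log2 expression of the 8 measured genes on each of 5 arrays (circles, 2 wild-type arrays; squares, 3 Mkl2-/- arrays; lines, group means), with the same span of log2 units on every vertical axis. Mdm2, Plk2, Ei24, Bbc3 and Gadd45g are higher on all 3 Mkl2-/- arrays, Gadd45b fell by 0.94, and the points of Ccng1 share the value 13.04 between groups.

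Mdm2 was higher in Mkl2-/- cells. It encodes the ubiquitin ligase that binds p53 and sends it to degradation, and is itself transcribed under p53. Mdm2 (chr10:117688875-117710758, minus strand, mouse build GRCm38.p6 per RefSeq) read 11.57 and 11.63 on the wild-type arrays and 12.07, 12.18 and 12.12 on the Mkl2-/- arrays. The lowest Mkl2-/- array thus lay 0.44 above the highest wild-type array, while the SD was 0.04 within wild type and 0.06 within Mkl2-/-. The difference was 0.52 ± 0.04 (SE, n = 2 and 3; 1.44-fold higher, limma adjusted p = 0.013), with a 95% interval of 0.41 to 0.64. By size it was the 146th largest rise among 19938 genes. Its 10 nearest expressed neighbours on chromosome 10, 5 on each side, had a median difference of -0.04, and of these only Cpm passed the test, as lower (-1.11).

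Plk2, a polo-like kinase of the serum and stress response, rose by nearly the same amount. It read 10.16 and 10.18 on wild-type arrays and 10.61, 10.71 and 10.68 on Mkl2-/- arrays. Every Mkl2-/- array lay at least 0.43 above the wild-type arrays, which differed from each other by less. The difference was 0.50 ± 0.04 (SE, n = 2 and 3; 1.41-fold higher, limma adjusted p = 0.011), with a 95% interval of 0.40 to 0.60 that overlaps the interval of Mdm2. Plk2 lies at chr13:110395044-110400844 on the plus strand. None of its 10 expressed neighbours rose, and 2 fell (Map3k1 by 0.24 and Il6st by 0.42 on the log2 scale).

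Both measured genes of the set that are linked to cell death by p53 were also higher, while Bax was not analysed. Bbc3 encodes PUMA, a BH3-only protein that neutralises the survival proteins of the Bcl2 family. It read 9.27 and 9.20 on wild-type arrays and 9.53, 9.61 and 9.67 on Mkl2-/- arrays, and the groups lay 0.26 apart at their nearest arrays. Its difference was 0.37 ± 0.05 (SE, n = 2 and 3; 1.29-fold higher, limma adjusted p = 0.034). Ei24, also known as PIG8, encodes a membrane protein of the endoplasmic reticulum and was found as a gene induced by etoposide and by p53. It read 10.93 and 10.94 on wild-type arrays and 11.23, 11.27 and 11.19 on Mkl2-/- arrays, with a gap of 0.25 between the groups. The difference of Ei24 was 0.295 ± 0.03 (SE, n = 2 and 3; 1.23-fold higher, limma adjusted p = 0.016). Its 95% interval of 0.22 to 0.37 lies below those of Mdm2 and Plk2 and overlaps that of Bbc3 (0.22 to 0.52). Among the neighbours of Ei24 on chromosome 9, Pus3 rose by 0.29 and Pknox2 fell by 1.49 on the log2 scale, and the median of 10 was 0.02. None of the 10 neighbours of Bbc3 on chromosome 7 passed the limma test.

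Ccng1 did not differ detectably between the genotypes. It encodes cyclin G1, one of the most regularly used p53 target genes, which brings a phosphatase to Mdm2. It read 13 and 13.04 on wild-type arrays and 13.04, 13.06 and 13.04 on Mkl2-/- arrays, so the groups share a value. The difference was 0.03 ± 0.02 (SE, n = 2 and 3; limma adjusted p = 0.404). Its 95% interval of -0.02 to 0.08 lies below the intervals of Mdm2, Plk2, Ei24 and Bbc3.

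**Figure D2:**
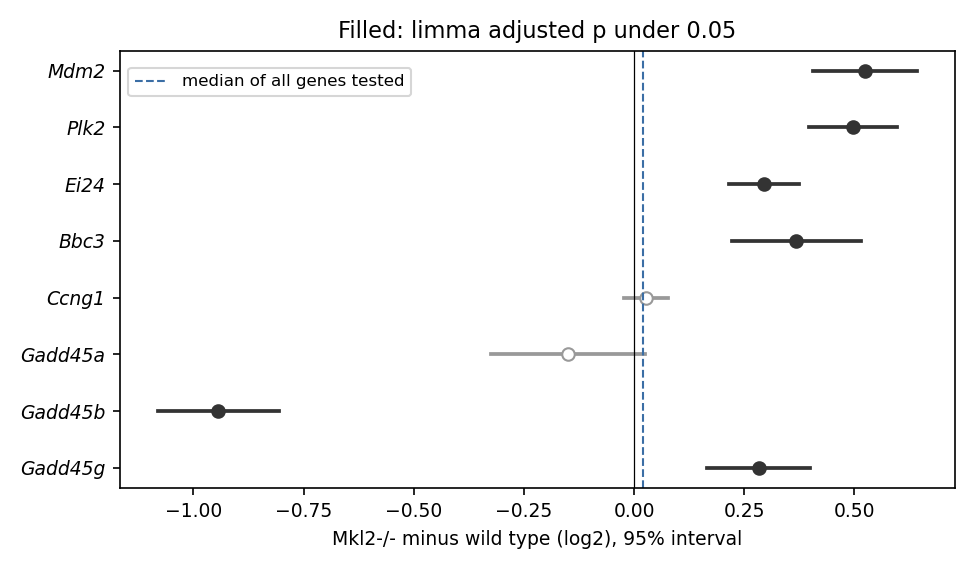
Difference between Mkl2-/- and wild type on the log2 scale for each of the 8 genes, with its 95% interval from limma (filled points, adjusted p under 0.05; open points, not passed; dashed line, median of all genes tested at 0.02). The intervals of Mdm2, Plk2, Ei24, Bbc3 and Gadd45g lie above 0, that of Gadd45b runs from -1.08 to -0.81, and those of Ccng1 and Gadd45a include 0.

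Promoter sequence was searched for the unit that p53 binds, because 5 of the genes rose together. The p53 decamer is the consensus unit of a p53 response element, and 2 of them in a row form the classical element. RefSeq promoter windows of build GRCm38.p6, from 250 bases before to 50 bases after a transcript start, were found for all 8 measured genes. There were 10 windows, since Bbc3 has 3, of which the last 2 overlap. A decamer stood in 4 of the 10 windows and in 8.36% of all 32851 mouse windows. The genes were chosen as p53 targets and Gadd45 genes, so this contrast does not bear on their change in Mkl2-/-. Those 4 stretches are shown with 25 bases on each side of the match, which is in capitals, read in the direction of the gene:

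Mdm2 (rose), chr10:117710910-117710969, minus strand: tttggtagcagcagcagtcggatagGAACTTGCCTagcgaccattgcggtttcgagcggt

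Ei24 (rose), chr9:36797310-36797369, minus strand: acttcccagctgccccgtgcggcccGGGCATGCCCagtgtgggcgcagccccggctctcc

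Ccng1 (not passed), chr11:40755437-40755496, minus strand: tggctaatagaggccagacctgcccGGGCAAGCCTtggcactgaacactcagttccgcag

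Gadd45a (not passed), chr6:67037413-67037472, minus strand: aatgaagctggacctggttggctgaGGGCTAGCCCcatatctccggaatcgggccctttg

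The consensus of the decamer is its own reverse complement, so each match counts for both strands. Of the 4 genes that hold it, Mdm2 and Ei24 rose while Ccng1 and Gadd45a did not pass the test. Plk2, Bbc3 and Gadd45g rose without a match in these windows. A pair of decamers at most 13 bases apart stood in 0 of the 10 windows and in 0.0731% of all windows. The element known to drive Mdm2 lies in its first intron, outside this window. The CArG box, the site of serum response factor, was in 0 of the 10 windows and in 1.63% of all windows. Plk2 held the cAMP response element TGACGTCA, the same on both strands, which was in 1.79% of all windows. Bbc3 and Gadd45g, which also rose without a decamer, do not hold it. Whether this motif bears on the rise of Plk2 was not tested. The match is shown in capitals:

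Plk2 (rose), chr13:110394957-110395014, plus strand: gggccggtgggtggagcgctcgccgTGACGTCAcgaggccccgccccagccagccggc

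A match is a run of letters and no evidence of binding.

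The 3 Gadd45 genes differed in direction. Gadd45b fell by 1.92-fold, Gadd45g rose by 1.22-fold and Gadd45a did not pass the test. Their proteins bind the kinase Map3k4, upstream of p38 and JNK, and the replication clamp Pcna. Gadd45b (chr10:80930091-80932204, plus strand) read 11.62 and 11.64 on wild-type arrays and 10.64, 10.77 and 10.65 on Mkl2-/- arrays. The groups lay 0.85 apart at their nearest arrays. The difference was -0.94 ± 0.05 (SE, n = 2 and 3; limma adjusted p = 0.0079), with a 95% interval of -1.08 to -0.81. It was the 136th largest fall among 19938 genes. None of the 10 expressed neighbours of Gadd45b on chromosome 10 passed the limma test, and their differences ran from 0.04 to 0.24.

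Gadd45g (chr13:51846675-51848475, plus strand) read 9.01 and 8.97 on wild-type arrays and 9.25, 9.23 and 9.34 on Mkl2-/- arrays. All 3 Mkl2-/- arrays were higher, with a gap of 0.22. The difference was 0.28 ± 0.04 (SE, n = 2 and 3; limma adjusted p = 0.037), with a 95% interval of 0.17 to 0.40. Of its 10 neighbours on chromosome 13, 2 rose, and the median was 0.00. Gadd45a (chr6:67035096-67037407, minus strand), the classical p53 target of the family, read 9.67 and 9.49 on wild-type arrays and 9.45, 9.40 and 9.44 on Mkl2-/- arrays. The groups did not overlap, but they lay only 0.04 apart while the wild-type arrays had an SD of 0.13. The difference was -0.15 ± 0.06 (SE, n = 2 and 3; limma adjusted p = 0.282), with a 95% interval of -0.32 to 0.02.

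The promoter windows of the family are shown whole, because these related genes moved in different directions. Capitals mark CCAAT, the box bound by NF-Y, found on the strand shown in all 3 and, counting both strands, in 37.4% of all windows. They also mark the core promoter motif TATAAA in Gadd45b and Gadd45g (in 13.6% of all windows, both strands), and the p53 decamer in Gadd45a:

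Gadd45a (not passed), chr6:67037358-67037657, minus strand: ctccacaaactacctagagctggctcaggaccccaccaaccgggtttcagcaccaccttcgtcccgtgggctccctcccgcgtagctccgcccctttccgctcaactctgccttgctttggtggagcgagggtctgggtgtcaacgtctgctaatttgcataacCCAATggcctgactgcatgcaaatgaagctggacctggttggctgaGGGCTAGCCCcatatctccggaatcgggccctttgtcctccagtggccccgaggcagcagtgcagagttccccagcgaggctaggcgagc

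Gadd45b (fell), chr10:80929841-80930140, plus strand: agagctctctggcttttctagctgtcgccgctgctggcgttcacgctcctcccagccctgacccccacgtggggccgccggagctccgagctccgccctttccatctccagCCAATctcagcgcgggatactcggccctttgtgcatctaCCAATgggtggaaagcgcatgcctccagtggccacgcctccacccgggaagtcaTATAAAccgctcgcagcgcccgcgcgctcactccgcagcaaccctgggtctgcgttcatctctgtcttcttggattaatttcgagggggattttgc

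Gadd45g (rose), chr13:51846425-51846724, plus strand: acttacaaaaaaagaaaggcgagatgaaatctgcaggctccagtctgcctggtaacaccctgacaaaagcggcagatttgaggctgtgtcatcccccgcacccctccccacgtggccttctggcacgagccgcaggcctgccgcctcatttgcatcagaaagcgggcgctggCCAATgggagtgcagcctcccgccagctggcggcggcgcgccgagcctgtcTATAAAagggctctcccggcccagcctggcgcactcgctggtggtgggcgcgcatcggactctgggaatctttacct

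Gadd45b holds CCAAT at 2 places and Gadd45a and Gadd45g at 1 each. The box is not particular to the family. Counting both strands, it also stood in windows of Mdm2, Bbc3 and Ccng1, and so in 6 of the 10 windows. Gadd45b and Gadd45g, which moved in opposite directions, share both motifs, and Gadd45a has no TATAAA in its window.

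Other p53 target genes, taken from a list of 42 of which 38 were measured, changed in both directions. Of the 38, 8 rose, 4 fell and 26 did not pass the limma test (median difference 0.07, against 0.02 over all genes). The rises made up 21.1% of the list, against 2.99% of all genes, and the falls 10.5%, against 6.28%. In the fit of genes above background only, which leaves out Fas, 12 of the list rose and 5 fell. Of all 13564 genes in that fit 822 rose and 1537 fell. Both are larger shares than 2.99% and 6.28%, so the contrasts given above do not carry over to that fit. By p, Igfbp3, Ak1 and Thbs1 stood first. Igfbp3, which encodes a binding protein of insulin-like growth factors, read 12.32 and 12.46 on wild-type arrays and 10.82, 10.75 and 10.86 on Mkl2-/- arrays (-1.58 ± 0.06, limma adjusted p = 0.0060). Ak1, an adenylate kinase gene, rose by 0.26 ± 0.02 and Thbs1, which encodes the matrix protein thrombospondin-1, fell by 0.46 ± 0.04 on the log2 scale. The other genes that passed are named after their values were seen. Those that rose were Pidd1 (0.625), which builds a caspase-2 platform, Zfp365 (0.58), Dcxr (0.50), Eda2r (0.47), the exonuclease gene Aen (0.32), Trp53inp1 (0.25) and Psrc1 (0.23). Those that fell were Xpc (-0.32), which recognises damaged DNA in excision repair, and Ephx1 (-0.205). Xpc on chromosome 6 and Ephx1 on chromosome 1 lie among neighbours that were lower too, with medians of -0.53 and -0.36 over 10 genes. The 10 neighbours of Pidd1, Zfp365, Dcxr and Igfbp3 had medians between -0.02 and 0.06. Those of Aen, Ak1, Psrc1 and Thbs1 had medians between -0.06 and 0.02. Of the 10 neighbours of Eda2r 2 rose and 4 fell, with a median of -0.04. The neighbours of Trp53inp1 had a median of -0.11, and 2 of them fell.

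Regulators of the p53 protein also changed in both directions. Of 18 measured genes 2 rose, 2 fell and 14 did not pass the limma test, with a median of 0.02. Each direction made up 11.1% of the list, against 2.99% of all genes for rises and 6.28% for falls. In the fit of genes above background only, 2 of the list rose and 2 fell. Of all 13564 genes in that fit 822 rose and 1537 fell, both larger shares than 2.99% and 6.28%. The kinase gene Hipk2, whose product phosphorylates p53, fell by 0.465 ± 0.05 and Cop1, a further ubiquitin ligase gene for p53, fell by 0.40 ± 0.05 on the log2 scale. Cop1 lies on chromosome 1 among 10 neighbours with a median of -0.145. Trp73, a relative of p53, rose by 0.18 ± 0.03, and its 10 neighbours on chromosome 4 had a median of 0.14. The phosphatase gene Ppm1d, itself a p53 target, rose by 0.08 ± 0.01, but passed in only 3 of 14 alternatives and reached an adjusted p of 0.370. It was lost after quantile and cyclic loess normalization, without genes of no spread and with trend and robust, among others. Mdm4, the closest relative of Mdm2, differed by 0.03 ± 0.04 (limma adjusted p = 0.667). The p53 gene itself was not analysed here.

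In the reported fit no gene passed the test in the lists for the death pathway in which Bbc3 acts and for relatives of Cdkn1a, Plk2 and Ccng1, against 9.27% of all genes. In 4 of the 14 alternatives the first list had 1 to 2 calls and the second 1. Of 19 measured genes of the Bcl2 family and of caspase activation 0 passed in limma, and 3 had an unadjusted p under 0.05. These were Mcl1 (0.105 ± 0.02, adjusted p = 0.055), the apoptosome gene Apaf1 (0.21 ± 0.04, adjusted p = 0.055) and the survival gene Bcl2 (-0.265 ± 0.07, adjusted p = 0.131). Bak1 (-0.02), Bcl2l1 (-0.07) and the BH3-only gene Pmaip1 (-0.08) were further relatives that did not pass. Of 11 cyclin-dependent kinase inhibitors, polo kinases and cyclin G2, 0 passed in limma and 1 had an unadjusted p under 0.05, Plk5 (0.43 ± 0.08, adjusted p = 0.064). Among them Cdkn1b, the gene of p27, differed by 0.145 ± 0.06, Cdkn1c by -0.05 and Cdkn2d by 0.07. Plk1 differed by -0.03, Plk3 by 0.03, Plk4 by 0.075 and Ccng2 by -0.02, none past the test.

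Of 11 measured partners of the Gadd45 proteins 1 fell and 10 did not pass the limma test, with a median of 0.01. The share called, 9.09%, was near the 9.27% of all genes. The gene was Map3k4, the kinase that Gadd45 proteins activate, with 9.75 and 9.77 on wild-type arrays and 9.53, 9.60 and 9.60 on Mkl2-/- arrays (-0.18 ± 0.03, limma adjusted p = 0.043, and not passed after quantile normalization). Of the p38 kinase genes downstream of it, Mapk11 differed by -0.355 ± 0.06 (adjusted p = 0.057) and Mapk14 by 0.05 ± 0.01 (adjusted p = 0.114).

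**Figure D3:**
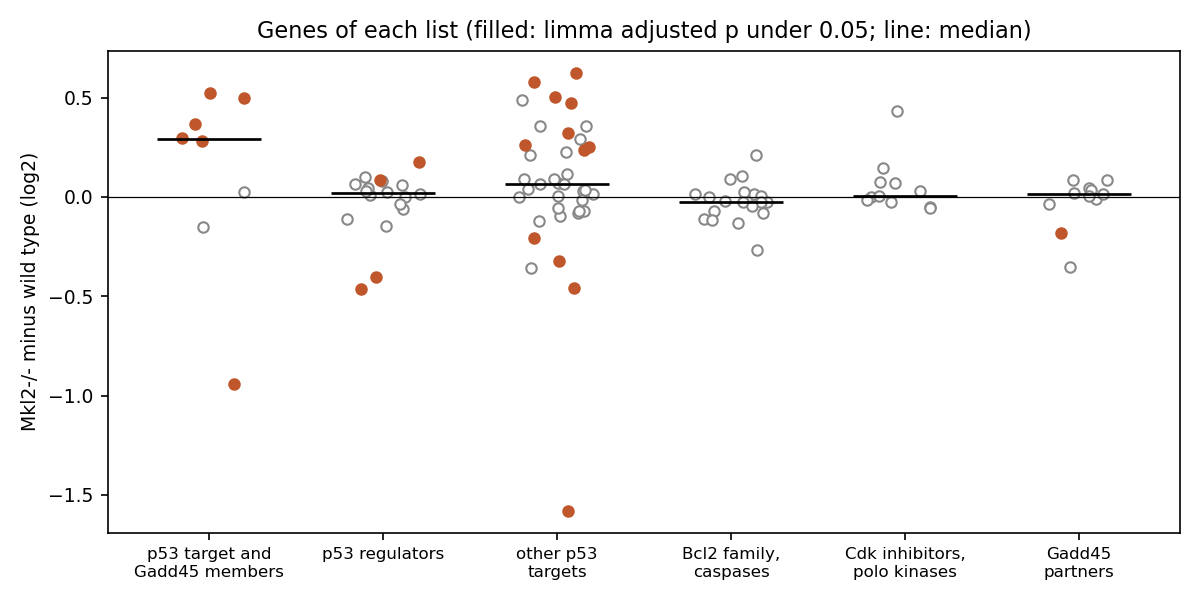
Difference between Mkl2-/- and wild type on the log2 scale for each measured gene of 6 lists (filled points, limma adjusted p under 0.05; open points, not passed; lines, list medians; horizontal position within a list has no meaning). Other p53 targets spread from -1.58 (Igfbp3) to 0.625 (Pidd1), while no gene of the Bcl2 and Cdk inhibitor lists is filled in this fit.

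The calls rest on few arrays. Without wild-type replicate 2 none of the 8 genes passed in limma (all 8 had an unadjusted p under 0.05), without wild-type replicate 1 or Mkl2-/- replicate 2 only Gadd45b passed, without Mkl2-/- replicate 1 Gadd45b and Plk2, and without Mkl2-/- replicate 3 Gadd45b and Ei24. The signs of the 6 called differences were kept each time. With the mean of the fibroblast markers as a covariate, which leaves 2 residual degrees of freedom, none of the 8 genes passed in limma, and 5 had an unadjusted p under 0.05. The marker means did not overlap between the groups, so that fit cannot cleanly separate the covariate from genotype. The SE of Bbc3 was 0.175 there, against 0.05 in the reported fit. With the covariate Gadd45b differed by -1.20, Gadd45g by 0.43, Bbc3 by 0.38 and Plk2 by 0.37. Mdm2 differed by 0.34 in place of 0.52 and Ei24 by 0.17 in place of 0.295. The limma adjusted p of the 6 genes ran from 0.279 to 0.516. Over all 14 alternatives the adjusted p of these 6 ran from 0.000305 (Gadd45b) to 0.516 (Bbc3).

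**Figure D4:**
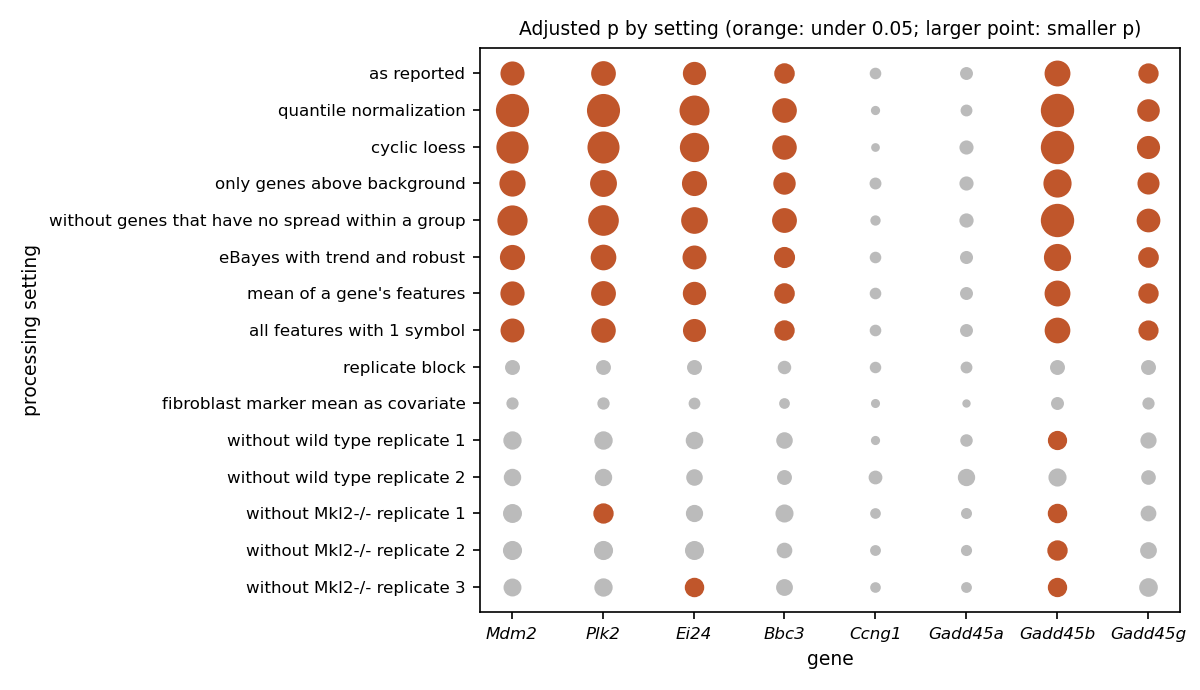
Limma adjusted p of the 8 genes under the reported processing and 14 alternatives (orange, under 0.05; grey, not; larger points stand for smaller p). The 6 called genes pass in each of 7 alternatives that keep all arrays and add no term to the model, and mostly do not pass where an array is left out, the replicate number is a block or the fibroblast mean is a covariate.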

How the data were processed

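The authors deposited log2 expression values. Per the submitters' processing notes these were made by RMA (background correction, quantile normalization and a summary of each feature's probes) in Expression Console 1.1 of Affymetrix. The sources used here name no scan date or batch. Of 35556 features, 21789 carried 1 gene symbol in the platform annotation, and the brightest of each gene was kept. The comparison used limma 3.58.1 (lmFit, eBayes) under R 4.3.3 (3 residual and 0.885 prior degrees of freedom), with Benjamini-Hochberg adjustment over 19938 genes, and the fit was tested on simulated data. In 776 genes there was no spread within either group at 2 decimals, which lowers the prior. Intervals are limma's. The genes, lists and rules were chosen with earlier results of these data known. Named are the 8 genes, the 3 smallest p-values of each list and preset relatives of the 8; others are stated. A preset search for genes with a like pattern was not made, since 5 arrays are too few for a correlation. Promoters and positions are RefSeq's, of GRCm38.p6. Some genes stand in several lists. The sensitivity part gives the 14 alternatives; 0 columns were left unused.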

Additional observations from a re-analysis of the deposited data

How the results depend on the processing

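The 6 called genes of the set (5 higher, 1 lower) passed in limma under 7 alternatives: quantile and cyclic loess normalization, genes above background only, without genes that have no spread within a group, eBayes with trend and robust, the mean of a gene's features, and all features. They kept their signs in all 14. Of those 7, all but quantile and cyclic loess normalization leave the differences of the 6 genes as reported, so only the p could change there. Each of the 6 genes has 1 feature, so the mean of a gene's features and all features use the same values for it. The replicate numbers were not taken to pair the cultures, because they are not stated to do so. Deviations of same-numbered arrays had correlations of -0.20 and 0.19. With 2 wild-type arrays the deviations of one mirror those of the other, so these values cannot decide whether the cultures were paired. With the replicate number as a block, and likewise with the fibroblast marker mean as a covariate, the called genes numbered 0 among all genes (3827 and 2522 at an unadjusted p under 0.05), 0 of the 8, 0 regulators, 0 other targets and 0 Gadd45 partners. The block leaves 1 residual degree of freedom. No wild-type array carries the number of Mkl2-/- replicate 3, so the block differences of the 8 genes equal those without that array. With the covariate Ccng1 differed by -0.024 (adjusted p = 0.823; 0.222 to 0.896 over all alternatives). Mkl2 differed by -0.455 with the block and by -0.76 with the covariate. Leaving out 1 array each gave 0 to 963 calls among all genes, 0 to 2 of the 8 genes, 0 regulators, 0 to 3 other targets and 0 to 1 Gadd45 partners; such fits also have fewer degrees of freedom. All calls numbered 2906 after quantile normalization and 2949 after cyclic loess, against 1848. Other targets numbered 19 after quantile normalization and also without genes of no spread. The Bcl2 list had 1 call after quantile normalization, 2 after cyclic loess, 2 above background and 1 without genes of no spread; the list of inhibitors and polo kinases had 1 in each of those 4. Gadd45 partners numbered 2 after cyclic loess, above background, without genes of no spread and with trend and robust. For these counts the cause was not tested. Precision is limited by the small number of arrays.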
